A study of Homo sapiens with 9 samples.

Results

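OLFM4, DMBT1, GPR15LG, LCN2, SLPI and PI3 encode secreted products of surface epithelia and were followed by messenger RNA sequencing in HaCaT, a human keratinocyte line that grows without limit in culture. The 6 genes were taken by symbol from a table of 20263 genes. OLFM4, DMBT1 and GPR15LG were picked because they had been seen to fall strongly under glabridin in these libraries, and LCN2, SLPI and PI3 were set beside them as defence genes of the same kind. The set had been named for a loss under glabridin. The libraries went against that name for LCN2 and SLPI, which were higher with glabridin than with melanosomes alone, so the set is treated here as 6 epithelial defence genes.

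The 9 libraries form 3 groups of 3. The glabridin group holds HaCaT cells given melanosomes, the pigment granules that melanocytes hand to keratinocytes, and then labelled as treated with glabridin, an isoflavan of licorice root. The melanosome group holds cells given melanosomes alone, and the control group holds cells given neither. The labels state no dose, no exposure time and no origin of the melanosomes. HaCaT is a single line, and whether the libraries of a group stem from different cultures is not said. The p-values below thus reflect library-to-library spread only, some or all of it possibly technical.

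Epithelia of gut, airway and skin secrete proteins that bind microbes, starve them of iron or hold leukocyte proteases in check. OLFM4 encodes olfactomedin 4, a glycoprotein known from intestinal crypt cells and from a subset of neutrophils. DMBT1 encodes a large mucosal glycoprotein with repeated scavenger receptor cysteine-rich domains that binds bacteria and viruses. GPR15LG encodes a small cationic peptide, the ligand of the lymphocyte receptor GPR15, which draws T cells to colon and skin. LCN2 encodes lipocalin 2, which takes bacterial siderophores and with them iron. SLPI and PI3 encode the secretory leukocyte peptidase inhibitor and elafin, inhibitors of neutrophil elastase with the whey acidic protein fold, and elafin is also crosslinked into the cornified envelope of stressed skin.

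The 6 genes lie on 4 chromosomes (GENCODE release 29, GRCh38). OLFM4 lies on chromosome 13 from 53028759 to 53052057, LCN2 on chromosome 9 from 128149071 to 128153455, DMBT1 on chromosome 10 from 122560665 to 122643736, and GPR15LG, annotated there as C10orf99, on the same chromosome from 84173738 to 84185294. PI3 (45174876 to 45176544) and SLPI (45252239 to 45254564) are neighbours on chromosome 20, 75695 bases apart and on opposite strands, with no other gene that passed the filter on low counts between them. All are protein-coding, and no other annotated gene overlaps any of the 6. RefSeq start-site windows of GRCh38.p14, from 250 bases before the start site to 50 after it, were at hand for 4 of them. They are shown because DMBT1 and GPR15LG shared the longest run of letters of any pair, and because LCN2, which moved the other way, can be set beside them. The windows are chr13:53028563-53028862 for OLFM4, chr10:122560504-122560803 for DMBT1, chr10:84173551-84173850 for GPR15LG and chr9:128149203-128149502 for LCN2, all on the plus strand and written 5′ to 3′. Capitals mark matches, on either strand, to an NF-kappaB motif, a C/EBP motif (TTNNGNAA), an AP-1 motif (TGANTCA), a STAT motif (TTCNNNGAA), an RBPJ motif (TGGGAA) and a TATA box (TATAAA).
OLFM4: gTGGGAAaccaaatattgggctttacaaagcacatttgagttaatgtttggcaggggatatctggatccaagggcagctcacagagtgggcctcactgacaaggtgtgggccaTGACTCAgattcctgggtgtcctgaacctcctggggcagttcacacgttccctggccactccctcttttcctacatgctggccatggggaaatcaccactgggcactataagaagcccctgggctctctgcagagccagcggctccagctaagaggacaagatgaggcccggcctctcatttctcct
DMBT1: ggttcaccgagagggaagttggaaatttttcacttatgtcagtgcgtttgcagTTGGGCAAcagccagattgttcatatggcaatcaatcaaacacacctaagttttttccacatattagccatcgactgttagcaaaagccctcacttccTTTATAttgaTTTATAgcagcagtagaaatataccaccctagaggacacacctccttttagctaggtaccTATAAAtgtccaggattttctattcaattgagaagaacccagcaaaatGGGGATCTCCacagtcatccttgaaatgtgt
GPR15LG: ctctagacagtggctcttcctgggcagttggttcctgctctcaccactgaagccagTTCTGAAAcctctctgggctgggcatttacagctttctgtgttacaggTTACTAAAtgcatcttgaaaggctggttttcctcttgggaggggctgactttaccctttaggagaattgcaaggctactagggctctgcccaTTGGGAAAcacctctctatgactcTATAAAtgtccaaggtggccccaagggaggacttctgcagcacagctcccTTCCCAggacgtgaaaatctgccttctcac
LCN2: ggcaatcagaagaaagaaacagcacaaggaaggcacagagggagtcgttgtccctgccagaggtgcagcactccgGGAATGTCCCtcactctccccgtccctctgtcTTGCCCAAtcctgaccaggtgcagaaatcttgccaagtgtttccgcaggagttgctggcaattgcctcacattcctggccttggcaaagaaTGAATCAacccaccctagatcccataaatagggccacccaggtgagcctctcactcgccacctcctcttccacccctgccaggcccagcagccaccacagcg

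The OLFM4 window held an AP-1 match that began 137 bases before the start site and an RBPJ match 249 bases before it. The DMBT1 window held a TATA box at 29 bases before the start site and others at 89 and 99, a C/EBP match at 197 bases before it and an NF-kappaB match at base 20 of the transcript. In the GPR15LG window the TATA box began 30 bases before the start site, C/EBP matches began at 54, 146 and 194 bases before it, and RBPJ matches at 53 bases before it, overlapping a C/EBP match, and at base 21 of the transcript. The LCN2 window held matches for NF-kappaB at 175, C/EBP at 143 and AP-1 at 52 bases before the start site. None of the 4 windows matched the STAT motif. Among 35116 such windows, 11.3% held the NF-kappaB motif, 36.8% the C/EBP motif, 7.71% the AP-1 motif, 7.66% the STAT motif, 24% the RBPJ motif and 11.5% the TATA box. DMBT1 and GPR15LG shared the run CTATAAATGTCCA around the TATA box, 13 bases that stood in 2 of the 35116 windows, their own. The run was taken from these windows as the longest of any pair. Its absence from the other windows was thus nearly fixed in advance by its length, and nothing is read from that count. The other 5 pairs of windows shared runs of 8 to 10 bases. These are matches of letters and say nothing of which factors bind.

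All 6 genes passed the filter on low counts, as 13912 genes did. Totals of the glabridin libraries ran from 42582054 to 46591852 counts, those of the melanosome libraries from 39653425 to 46690787 and those of control from 41793696 to 45839573. Keratinocyte identity was checked with 12 markers, whose summed level was 9136 to 11820 TPM (the share of all transcripts, corrected for transcript length) with glabridin, 13414 to 14022 TPM with melanosomes alone and 13038 to 13264 TPM in control. Single markers moved in both directions under this sum. The keratin gene KRT5 averaged 1994, 3590 and 4652 TPM in that order, and KRT14 averaged 3587, 5555 and 4280 TPM. These 2 had the highest mean TPM of the 12. Of 2 others picked after their values were seen, the involucrin gene IVL averaged 5.24, 46.2 and 138 TPM in that order. The keratin gene KRT16 averaged 44.0, 15.5 and 5.18 TPM. The sum over 12 melanocyte markers was 1475 to 2682 TPM with glabridin, 2926 to 2969 with melanosomes alone and 4.81 to 5.45 in control, so pigment cell transcripts set the control apart from both other groups. Of 12 markers of neutrophils and other leukocytes, 11 averaged under 1 TPM in each group, CD68 being the exception. Of 9 markers of intestinal epithelium, all averaged under 1 TPM in both melanosome-laden groups, and 8 did so in control. The part played by melanocyte transcripts in the results below was not tested. In such bulk libraries, fewer cells that make a transcript and less transcript per cell cannot be told apart.

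**Figure D1:**
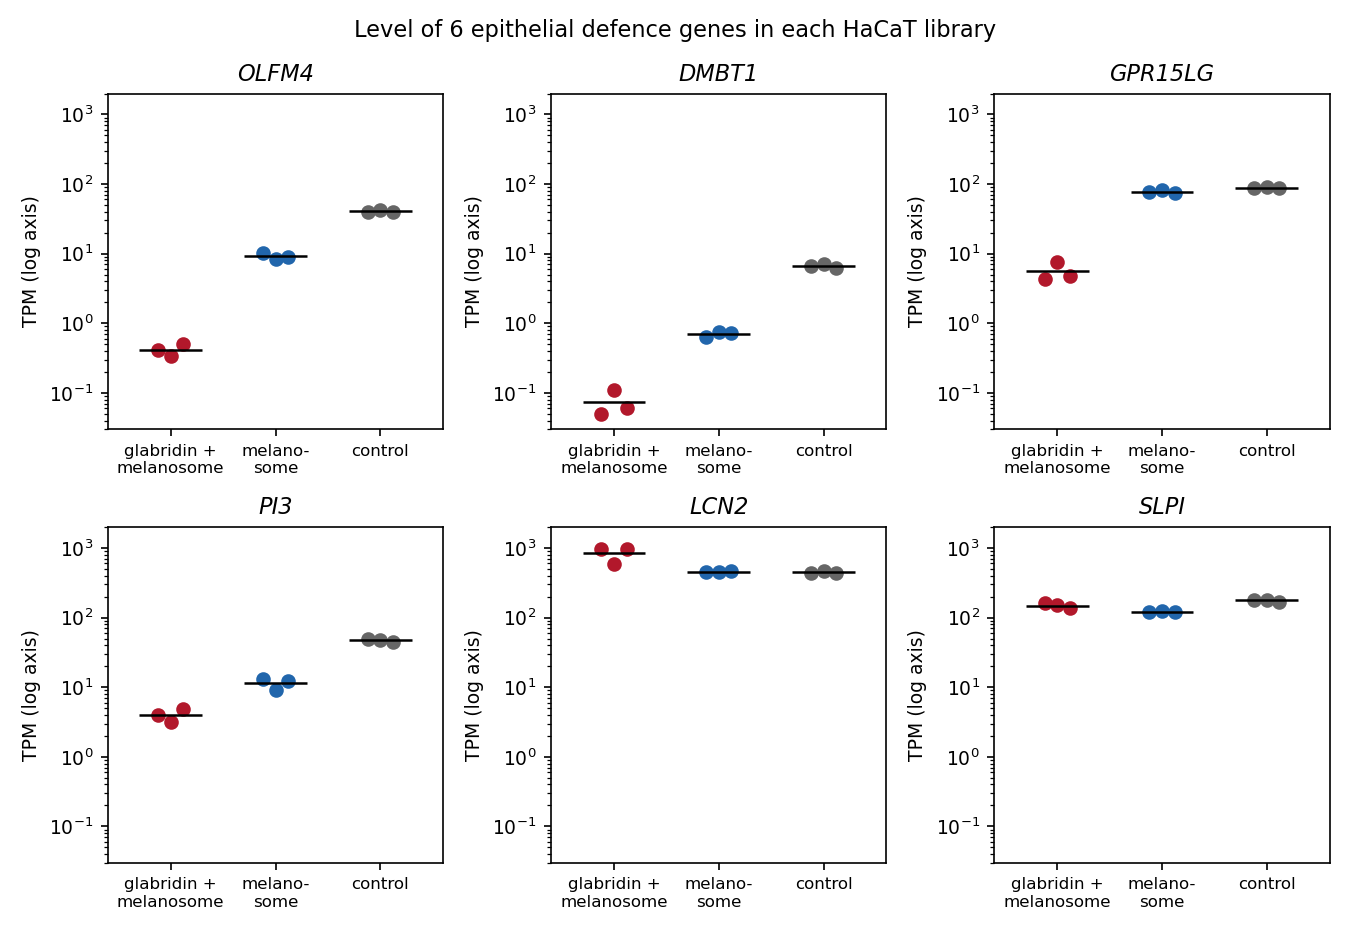
Level of each gene in TPM (log axis, the same in all panels) in the 3 glabridin, 3 melanosome and 3 control libraries, with points for libraries and lines for group means. OLFM4, DMBT1 and PI3 are lowest in glabridin, intermediate in melanosome and highest in control libraries, GPR15LG is low with glabridin, and LCN2 is highest with glabridin, where 1 library lies at 596 TPM.

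OLFM4 was almost absent from glabridin-treated cells. It stood at 0.41, 0.34 and 0.50 TPM in the glabridin libraries, at 10.2, 8.38 and 8.96 TPM with melanosomes alone and at 39.3, 42.7 and 39.9 TPM in control. No library of 1 group reached the range of another, and the ranks followed: OLFM4 was the gene at place 12633 by level in the glabridin group, 8138 in the melanosome group and 3418 in control. The glabridin values rest on 20, 16 and 24 counts, against 501, 356 and 447 counts in the melanosome libraries and 1789 to 2088 in control. The fitted change between glabridin and melanosome libraries, which chose this gene, was -4.28 ± 0.13 on the log2 scale (SE), a fold of 19.4 lower, and only 8 of the 13912 tested genes fell further. Between melanosome and control libraries, a comparison that shares the melanosome libraries with the first, OLFM4 fell by 2.32 ± 0.09 (edgeR adjusted p = 1.54e-08). Glabridin libraries lay 97.4-fold below control (log2 change -6.61 ± 0.13), which is given without a test because it uses the glabridin libraries that chose the gene.

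DMBT1 had the lowest level of the 6 genes in every group, and it was lower with glabridin than with melanosomes alone and lower with melanosomes alone than in control. It was at 0.05, 0.11 and 0.06 TPM with glabridin, at 0.63, 0.76 and 0.73 TPM with melanosomes alone and at 6.71, 7.08 and 6.27 TPM in control. The groups did not overlap. The glabridin level came from 8, 14 and 6 counts, so its size is the least certain of the set. The fitted change was -3.14 ± 0.26 between glabridin and melanosome libraries and -3.43 ± 0.17 between melanosome and control libraries. Both are given as descriptions, since DMBT1 was picked for the first and already known to fall in the second. On log2(TPM + 1), which shrinks changes at such levels, they came to -0.67 and -2.17. Of all tested genes, 27 fell further than DMBT1 in the first comparison and 5 in the second.

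GPR15LG was far lower with glabridin, while its level with melanosomes alone lay close to control. The glabridin libraries held 4.34, 7.57 and 4.72 TPM, against 77.8, 80.9 and 73.3 TPM in melanosome libraries and 86.5, 89.6 and 87.7 TPM in control. Glabridin libraries were thus far below both other groups, which lay close together without overlapping. The fitted change between glabridin and melanosome libraries was -3.61 ± 0.19, or 12.2-fold lower, again the value that chose the gene. Between melanosome and control libraries it was -0.37 ± 0.16 and did not pass the test (edgeR adjusted p = 0.0651). That call changed with the libraries in the fit. With the 6 melanosome and control libraries alone the change was -0.28 and passed (edgeR adjusted p = 0.000666), and it also passed without glabridin replicate 2 or 3, at -0.37 both times. With library totals alone, without scaling factors, it was smaller, at -0.20, and did not pass (edgeR adjusted p = 0.294). GPR15, the receptor of this ligand, was listed at 0 TPM in all 3 groups.

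LCN2 was the most abundant of the 6 genes and rose under glabridin. Its levels were 954, 596 and 966 TPM in glabridin libraries, 448, 449 and 461 TPM in melanosome libraries and 439.8, 471 and 440.3 TPM in control. Every glabridin library lay above all others, replicate 2 by less than its 2 companions, while melanosome and control libraries overlapped in TPM. In CPM, the scale of the test, they did not, with 153 to 166 CPM in melanosome libraries and 175 to 187 CPM in control. CPM are counts scaled by library size and by the TMM scaling factors, and this gap depended on those factors. The fit gave a 2.09-fold rise over melanosome libraries (log2 change 1.06 ± 0.13, edgeR adjusted p = 9.1e-05) and a 1.86-fold rise over control (0.89 ± 0.13, edgeR adjusted p = 9.69e-05). Between melanosome and control libraries the change was -0.17 ± 0.13 (edgeR adjusted p = 0.259), it turned to 0.01 on log2(TPM + 1), and it passed without glabridin replicate 2 (edgeR adjusted p = 0.00771). With library totals alone, without TMM factors, that change was -0.005 (edgeR adjusted p = 0.977). In the glabridin group, replicate 2 held the lowest LCN2, OLFM4 and PI3 and the highest GPR15LG and DMBT1, and also the highest melanocyte marker sum, 2682 TPM against 1727 and 1475. Without that library the LCN2 change was 1.23, and without replicate 1 it was 0.86. LCN2 made up 83.5% ± 4.29 of the summed TPM of the 6 genes with glabridin, 67.3% ± 0.745 with melanosomes alone and 55.7% ± 0.774 in control (SD, n = 3 each). SLC22A17, which encodes a receptor proposed for lipocalin 2, was at 11.4 TPM, 8.74 TPM and 2.71 TPM in the same order, and its log2 change between glabridin and melanosome libraries was 0.58 (edgeR adjusted p = 0.0424). The change was 0.25 without glabridin replicate 2, which held 15.5 TPM against 9.88 and 8.83 TPM in the others. The call was lost with RLE, upper-quartile or no factors, with the 2 groups alone and on the TPM scale. It was also lost without any 1 library other than glabridin replicate 3.

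The 2 neighbouring elastase inhibitors parted under glabridin. PI3 was at 4.04, 3.21 and 4.89 TPM with glabridin, at 13.2, 9.11 and 12.1 TPM with melanosomes alone and at 49.9, 47.6 and 43.9 TPM in control. All 3 groups were separate, and the level was lowest with glabridin. PI3 fell by 1.32 ± 0.18 on the log2 scale between glabridin and melanosome libraries (edgeR adjusted p = 1.93e-04) and had a change of -2.22 ± 0.15 between melanosome and control libraries (edgeR adjusted p = 5.91e-07). Both steps together left it 11.6-fold below control (edgeR adjusted p = 2.7e-08).

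SLPI, by contrast, was lowest with melanosomes alone. Its levels were 159, 150.3 and 136 TPM in glabridin libraries, 119.9, 124 and 120.1 TPM in melanosome libraries and 181, 179 and 169 TPM in control. The groups did not overlap, with the glabridin libraries between the other two. SLPI rose by 0.48 ± 0.09 between glabridin and melanosome libraries (edgeR adjusted p = 0.00191) and fell by 0.72 ± 0.09 between melanosome and control libraries (edgeR adjusted p = 7.81e-05). Between glabridin and control libraries the change was -0.24 ± 0.09 (edgeR adjusted p = 0.0395), a call lost with RLE factors (edgeR adjusted p = 0.0726), with DESeq2 (adjusted p = 0.0658), with the 6 libraries alone (edgeR adjusted p = 0.0757) and without glabridin replicate 3 or any 1 of the melanosome or control libraries, where it ran from -0.27 to -0.14. The ratio of PI3 to SLPI in TPM was 0.0276 ± 0.00758 with glabridin, 0.0948 ± 0.0189 with melanosomes alone and 0.267 ± 0.00842 in control (SD, n = 3 each). No test was made of this ratio, and its ranges in the 3 groups did not overlap. LCN2, SLPI and PI3 were chosen with earlier results of these libraries known, so their adjusted p-values are not independent evidence.

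**Figure D2:**
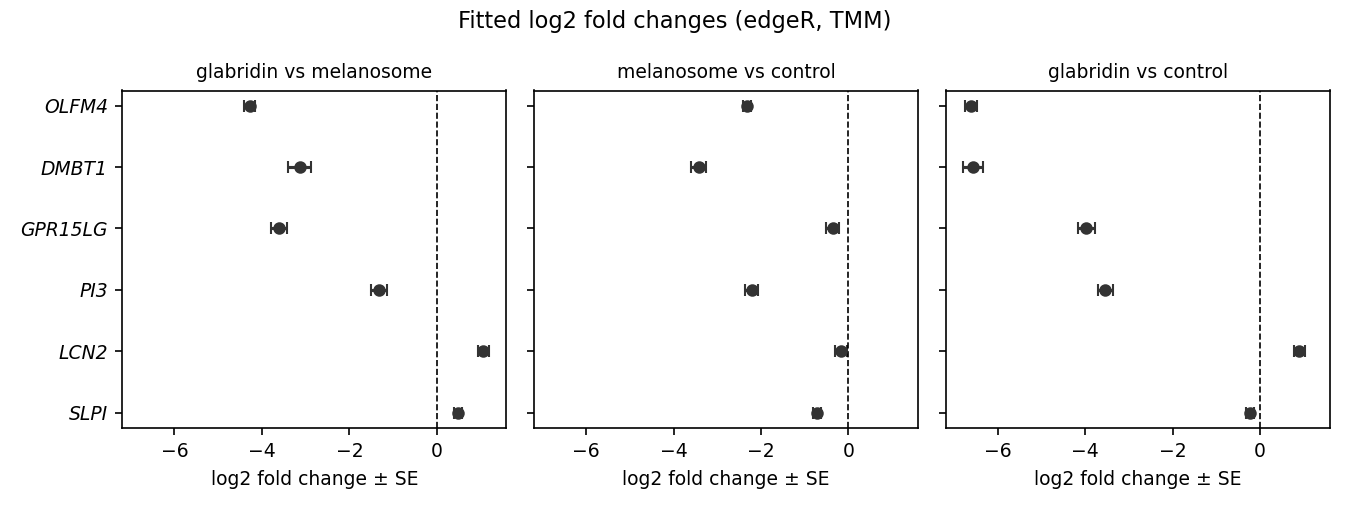
Fitted log2 fold changes of the 6 genes with their SE in the 3 comparisons, each over 3 and 3 libraries. Between glabridin and melanosome libraries, OLFM4, DMBT1, GPR15LG and PI3 lie below 0 and LCN2 and SLPI above it, at 1.06 and 0.48, while SLPI lies at -0.24 between glabridin and control libraries.

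These values stand on a background of many changes. Between glabridin and melanosome libraries 43.9% of tested genes were called (edgeR adjusted p under 0.05), 23.7% higher and 20.2% lower. The 6 genes split there into 2 higher and 4 lower, and since that comparison chose 3 of them nothing is read from the count. Between melanosome and control libraries 62.5% were called, 29.5% higher and 33% lower, and between glabridin and control libraries 70.3%, 37.6% higher and 32.7% lower. Balances of this kind depended on scaling. Of the calls, 54% were higher in the first comparison and 47.2% in the second, against 29% and 66% with library totals alone, which moved the median log2 change by -0.18 and 0.17. Between glabridin and melanosome libraries, a shift of that size is small beside the falls of OLFM4, DMBT1, GPR15LG and PI3. It is not small beside the change of SLPI there, which was 0.30 with library totals alone and still passed (edgeR adjusted p = 0.0142). Nor is it small beside the changes of GPR15LG and LCN2 between melanosome and control libraries. With library totals alone these came to -0.20 and -0.005.

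**Figure D3:**
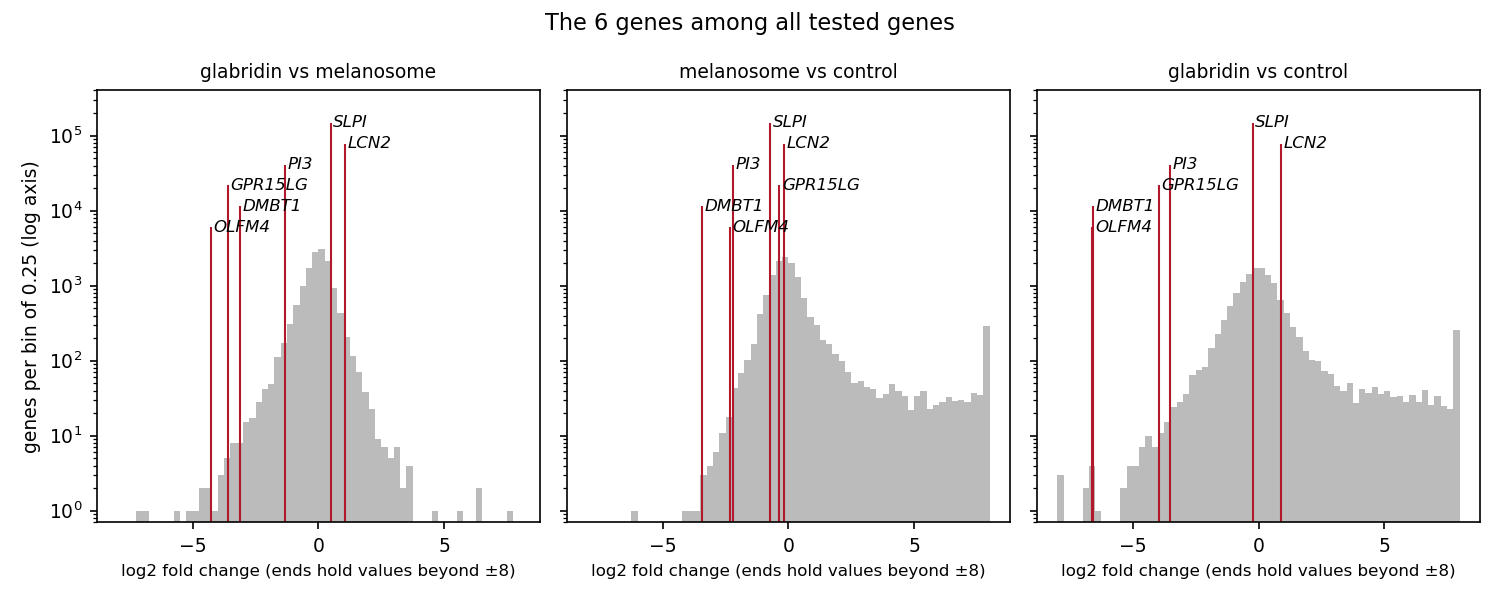
Distribution of log2 fold changes over 13912 tested genes in each comparison, in bins of 0.25 with a log count axis, and red lines at the 6 genes. Between glabridin and melanosome libraries, OLFM4, GPR15LG and DMBT1 lie in the low tail, where 8, 17 and 27 genes lie lower. They were picked for their fall in this comparison, so their place restates the choice. LCN2 and SLPI lie right of the centre there.

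Further genes of epithelial defence were counted in 7 lists chosen by function. Of their 161 entries, 159 were in the table and 118 passed the filter. The lists had been chosen with results of these libraries known and give no independent evidence. Over all tested genes, 20.2% fell and 23.7% rose between glabridin and melanosome libraries. Between melanosome and control libraries 33% fell and 29.5% rose. List counts near these shares are not read as a trait of the list. In that of skin antimicrobial peptides and proteins, 12 of 24 genes passed the filter. Between glabridin and melanosome libraries 9 of them fell, 1 rose and 2 did not pass the test, with a median log2 change of -1.52 beside 0.01 over all genes. Between melanosome and control libraries 9 fell and 3 rose, with a median of -1.16 beside -0.06 over all genes. Of the 9 that fell with glabridin, 8 had also fallen with melanosomes, where 9 of all 12 fell. The share of all tested genes that fell in both comparisons was not computed, so nothing is read from this overlap. The 2 comparisons share the melanosome libraries, and the melanocyte markers rose in those libraries over control.

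The 3 genes of that list with the highest mean TPM were ADM, S100A9 and S100A7. S100A7, the gene of the keratinocyte antimicrobial protein psoriasin, averaged 2.27 TPM with glabridin, 22.0 TPM with melanosomes alone and 74.9 TPM in control, with log2 changes of -3.08 (edgeR adjusted p = 3.73e-07) and -1.95 (edgeR adjusted p = 3.63e-07). S100A9, a subunit gene of calprotectin, averaged 18.8, 86.5 and 194 TPM in the same order and fell in both comparisons, by 2.01 (edgeR adjusted p = 2.04e-06) and 1.34 (edgeR adjusted p = 8.49e-06). ADM, the gene of adrenomedullin, a vasoactive peptide with antimicrobial activity, was the 1 gene of the list that rose with glabridin, with 205, 137 and 61.2 TPM in the same order (log2 change 0.78, edgeR adjusted p = 0.0179). The glabridin libraries held 160, 298 and 155 TPM, and without replicate 2, the high one, the change was 0.35. The call was lost with library totals alone (edgeR adjusted p = 0.0514), with the 2 groups alone (edgeR adjusted p = 0.0533) and on the TPM scale. It was also lost without melanosome replicate 1 or 2 (edgeR adjusted p = 0.0582 and 0.0549). Of others, picked after their values were seen, PGLYRP4, which encodes a peptidoglycan recognition protein, averaged 2.27 ± 0.226 TPM with glabridin, 9.59 ± 0.219 TPM with melanosomes alone and 36.1 ± 1.27 TPM in control (SD, n = 3 each), and fell in both comparisons. DEFB1, the constitutive beta-defensin gene, averaged 5.21 ± 1.52, 10.7 ± 1.19 and 17.2 ± 2.46 TPM in that order, and fell in both as well, the fall with glabridin being lost without glabridin replicate 1 or melanosome replicate 2 (edgeR adjusted p = 0.0518 and 0.0605). RNASE7, an antimicrobial ribonuclease gene, averaged 3.22 ± 1.05 TPM with glabridin and 2.40 ± 0.255 TPM with melanosomes alone, which did not pass (edgeR adjusted p = 0.0506) but did without glabridin replicate 1 (edgeR adjusted p = 0.0126). S100A7A was at 0 TPM in all glabridin libraries. With S100A7A and LTF at bounds of 3 counts over a group where they had none, the list medians stayed at -1.52 and -1.16.

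Genes of mucosal surfaces also fell more often than they rose. All tested genes gave 20.2% lower and 23.7% higher between glabridin and melanosome libraries (median 0.01). Between melanosome and control libraries they gave 33% lower and 29.5% higher (median -0.06). Of 18 genes of the mucosal list that passed the filter, 11 fell and 3 rose in the first comparison (median -0.50). In the second, 10 fell and 4 rose (median -0.63). Among the 3 with the highest TPM was CLCA2, a gene of an epithelial adhesion protein. It averaged 49.9 TPM with glabridin and 82.9 TPM with melanosomes alone and fell (log2 change -0.55, edgeR adjusted p = 1.6e-04). CEACAM5, a gene of a glycosylated surface protein, averaged 36.5 TPM with glabridin and 33.4 TPM with melanosomes alone and rose (0.31, edgeR adjusted p = 0.00519). That call was lost with library totals alone (edgeR adjusted p = 0.116) and on the TPM scale. LGALS3, the galectin-3 gene, had a change of 0.04 (edgeR adjusted p = 0.767). PIGR, named after its values were seen, whose product carries antibodies across mucosa, averaged 0.0433 ± 0.0115 TPM in glabridin, 0.403 ± 0.111 TPM in melanosome and 3.80 ± 0.225 TPM in control libraries. AGR2, a disulfide isomerase gene of secretory cells also named after its values were seen, moved the other way, with 34.4 ± 8.31 TPM in glabridin, 8.39 ± 0.683 TPM in melanosome and 13.5 ± 0.892 TPM in control libraries (log2 change between the first pair 2.21 ± 0.15, edgeR adjusted p = 1.69e-06).

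Protease inhibitors were split, as SLPI and PI3 were. Of 15 that passed, 6 rose and 7 fell between glabridin and melanosome libraries (median -0.17), and 7 rose and 5 fell between melanosome and control libraries (median -0.03). SPINT1 and SPINT2, which encode the membrane-bound Kunitz inhibitors of matriptase and related proteases, rose with glabridin by 0.37 (edgeR adjusted p = 8.86e-04) and 0.44 (edgeR adjusted p = 4.39e-04), while the cystatin C gene CST3 had a change of -0.14 (edgeR adjusted p = 0.357) but passed as lower with library totals alone (-0.32, edgeR adjusted p = 0.0259), on the TPM scale and without glabridin replicate 2. WFDC2, a whey acidic protein gene like SLPI and PI3 and named after its values were seen, fell to 5.57 ± 0.320 TPM with glabridin, against 12.0 ± 0.702 TPM with melanosomes alone, where control had 19.8 ± 1.56 TPM. Of 16 kallikrein and serine protease genes, 3 rose and 3 fell with glabridin (median -0.05; 6 fell with library totals alone), and 5 rose and 3 fell with melanosomes (median 0.00; 0 fell with library totals alone). For both lists, the shares over all genes were 23.7% higher and 20.2% lower with glabridin, and 29.5% and 33% with melanosomes. KLK5, a protease gene of the stratum corneum, averaged 723 TPM in glabridin and 732 TPM in melanosome libraries (edgeR adjusted p = 0.12). PRSS8, the prostasin gene, averaged 406 TPM with glabridin and 198 TPM with melanosomes alone and rose (edgeR adjusted p = 1.61e-05). The matriptase gene ST14 averaged 282 TPM with glabridin and 268 TPM with melanosomes alone, a change of 0.26 that passed under TMM (edgeR adjusted p = 0.0246). That call was lost with RLE, upper-quartile or no factors (edgeR adjusted p = 0.0776, 0.191 and 0.355) and with DESeq2 (adjusted p = 0.0799). It was also lost with the 2 groups alone (edgeR adjusted p = 0.0873), on the TPM scale, and without glabridin replicate 1 or melanosome replicate 1 or 2. Without glabridin replicate 2 the ST14 change was 0.17.

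**Figure D4:**
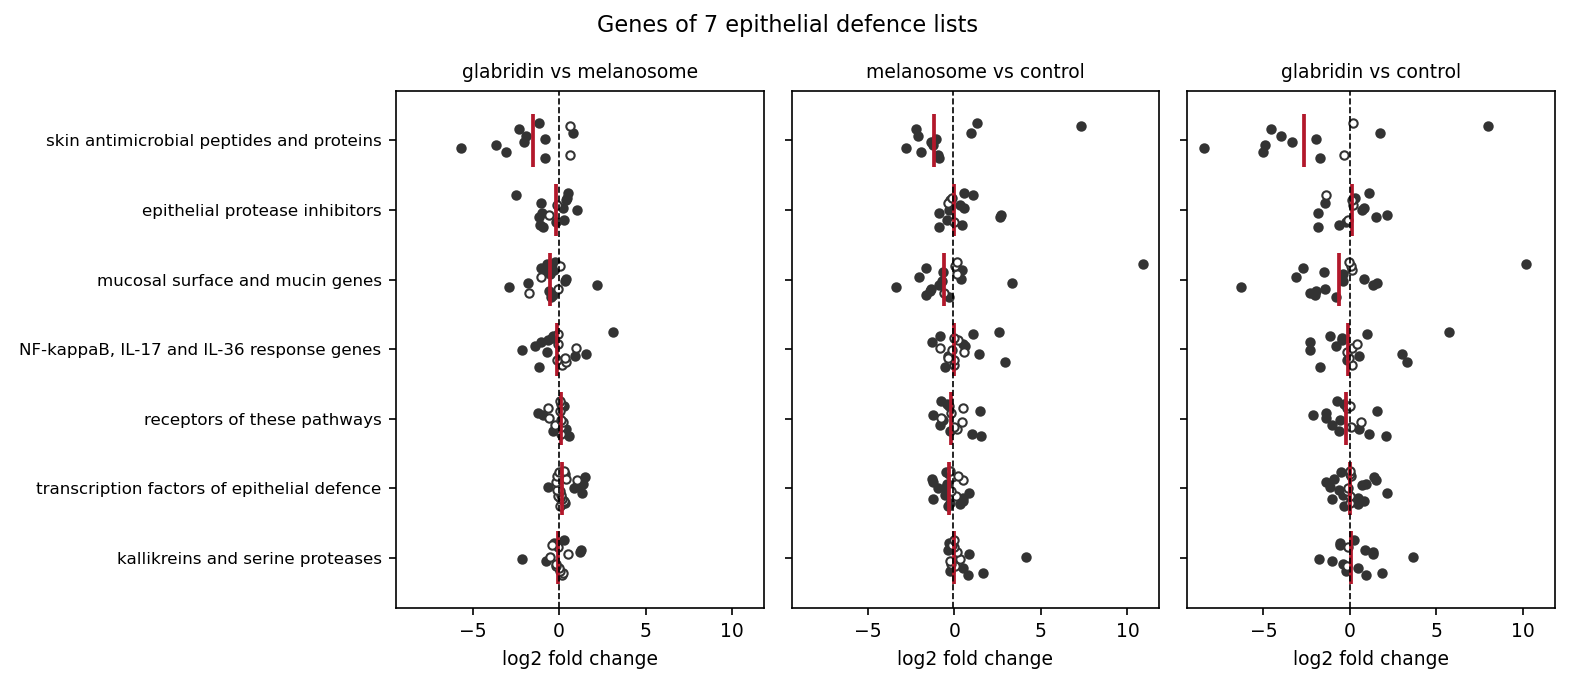
Log2 fold changes of the genes of 7 lists that passed the filter, with filled points for genes called by edgeR and open points for others, red bars for list medians and the dashed line for the median of all genes. The skin antimicrobial list has the lowest median in all 3 comparisons, -1.52 between glabridin and melanosome libraries.

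Response genes of NF-kappaB, IL-17 and IL-36 signalling, signals known to induce LCN2 and PI3 in skin, did not move as 1 group. Of 18 that passed, 3 rose and 8 fell between glabridin and melanosome libraries (median -0.10), and 6 rose and 4 fell between melanosome and control libraries (median -0.04). All tested genes gave 23.7% higher and 20.2% lower in the first comparison, and 29.5% and 33% in the second. NFKBIA and TNIP1, feedback inhibitors of NF-kappaB, changed by 0.16 (edgeR adjusted p = 0.216) and -0.14 (edgeR adjusted p = 0.108) with glabridin. TNIP1 passed as lower with library totals alone (edgeR adjusted p = 0.00158), with upper-quartile factors (edgeR adjusted p = 0.0122) and with DESeq2 (adjusted p = 0.0419). It also passed as lower on the TPM scale and without glabridin replicate 1 (edgeR adjusted p = 0.00927). The complement gene C3 averaged 50.7 TPM in glabridin, 118 TPM in melanosome and 256 TPM in control libraries and fell in both comparisons. Of genes picked after their values were seen, IL1B, an inflammatory cytokine gene, rose to 226 ± 8.01 TPM in glabridin libraries, against 86.0 ± 3.27 TPM in melanosome libraries, and NFKBIZ, an inducible NF-kappaB cofactor gene, fell to 1.60 ± 0.466 TPM with glabridin, against 4.10 ± 0.450 TPM with melanosomes alone.

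Of 23 transcription factors of epithelial defence that passed, 8 rose and 1 fell between glabridin and melanosome libraries (median 0.19; 5 fell with library totals alone), and 4 rose and 13 fell between melanosome and control libraries (median -0.34). ELF3, an epithelial ETS factor, followed the course of SLPI, with 539 TPM with glabridin, 341 TPM with melanosomes alone and 592 TPM in control (log2 changes 0.84, edgeR adjusted p = 2.27e-06, and -0.98, edgeR adjusted p = 2.87e-07). HES1, a target and effector of Notch signalling, rose with glabridin to 512 TPM, against 203 TPM in melanosome libraries (1.53, edgeR adjusted p = 4.13e-07), and RXRA, a partner of nuclear receptors, changed by -0.01 (edgeR adjusted p = 0.92) but passed as lower with library totals alone (-0.19, edgeR adjusted p = 0.0368) and on the TPM scale. CEBPB, a factor of acute-phase genes named after its values were seen, averaged 390 ± 31.4 TPM, 175 ± 5.95 TPM and 88.3 ± 3.07 TPM in glabridin, melanosome and control libraries and rose in both comparisons. Of 16 receptors, 3 rose and 3 fell with glabridin (median 0.08) and 3 rose and 7 fell with melanosomes (median -0.22). Beside these 2 lists, 23.7% of all genes rose and 20.2% fell with glabridin, and 29.5% and 33% with melanosomes. F2RL1, a protease-activated receptor, rose by 0.30 with glabridin (edgeR adjusted p = 0.00248). It did not pass with library totals alone or without glabridin replicate 1 (edgeR adjusted p = 0.106 and 0.0601), nor on the TPM scale. The TNF receptor gene TNFRSF1A changed by 0.12 (edgeR adjusted p = 0.154) and the E-cadherin gene CDH1 by 0.11 (edgeR adjusted p = 0.0958).

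Likeness to other genes was measured by the root-mean-square difference between centred log2 CPM profiles over the 9 libraries, among 11140 candidates with a mean log2 CPM of at least 1. It is a description, and all profiles share the same libraries. OLFM4 and DMBT1 lay 0.67 apart and shared S100A7 and ALPG, a placental-type alkaline phosphatase gene, among their 3 nearest candidates, with IVL, the involucrin gene, as the third for OLFM4 and KRT4, a mucosal keratin gene, as the third for DMBT1. ALPG reads may be shared with its near-identical paralogs. GPR15LG was closest to CASP14, a caspase gene of cornification, at 0.25, then to EGLN3 and RASSF10, at 0.44 and 0.59. PI3 was closest to CYP4B1, DCN and TNFSF10, at 0.21 to 0.22. LCN2 was closest to GLIS2, MNT and BOD1, at 0.08 to 0.09, and SLPI to the ribosomal protein genes RPL9, RPLP0 and RPL18, at 0.05 to 0.07. LCN2 and SLPI differed least from each other among the pairs, at 0.50, and OLFM4 and LCN2 most, at 3.09. The measure keeps the size of changes, so genes with small changes lie close together. Between glabridin and control libraries LCN2 and SLPI moved in opposite directions, by 0.89 and -0.24.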

How the data were processed

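Libraries were poly(A)-selected, kept strand by dUTP and were read from both ends, per the labels' protocols. Per the submitters' processing notes, reads were placed on hg38. The sources used here name no aligner, counting program, strand setting or annotation. The authors deposited raw counts per gene, with TPM and FPKM beside them per the file headers. The FPKM were not used, and a second deposited TPM table held equal values. Among counts of 1 to 49, 69.9% to 72.2% were even, as would follow if each read of a pair were counted, so small counts may stand for fewer fragments. No interval was computed from counts.

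Of 20263 identifiers, 20148 matched a symbol. The deposited counts entered edgeR 4.0.16 under R 4.3.3 (quasi-likelihood test, TMM, filterByExpr by group, all 9 libraries in 1 fit), with Benjamini-Hochberg adjustment over 13912 genes. A gene was called at an adjusted p under 0.05, and SEs come from the F statistic. The scripts were tested on simulated counts. Alternatives were other scaling factors, DESeq2 1.42.0, no filter, the 2 groups compared alone, halved counts, a replicate block, limma 3.58.1 on log2(TPM + 1) and log2(TPM + 0.1), and each library left out. The members and lists were chosen with earlier results of these data known. In each list the 3 genes with the highest mean TPM over all libraries are named, plus GPR15 and SLC22A17. Others are marked as picked after their values were seen.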

Additional observations from a re-analysis of the deposited data

How the results depend on the processing

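Of 342 values of the 6 genes under 19 alternatives, 319 kept their direction, and their call or, for values without a test, stayed within the replicate spread. Between glabridin and control, OLFM4, DMBT1 and GPR15LG were scored by their call, though the libraries that chose them enter it. LCN2 between melanosome and control libraries turned to 0.0083 on log2(TPM + 1) and to 0.0083 on log2(TPM + 0.1), and the cause was not tested. With only the 2 groups compared, GPR15LG and LCN2 passed there at -0.28 and -0.09, and with halved counts GPR15LG passed at -0.36. Between glabridin and control, SLPI missed the threshold at -0.22 with RLE factors and DESeq2 and at -0.24 with the 2 groups alone. Values of low genes shrank on the TPM scale by its pseudocount. OLFM4 came to -2.84 on log2(TPM + 1) between glabridin and melanosome libraries. DMBT1 came to -0.67 and -2.23 there with 1 and 0.1 added, and to -2.17 and -3.07 between melanosome and control libraries.

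Leaving out each library in turn gave GPR15LG -0.41 to -0.29 and LCN2 -0.20 to -0.10 between melanosome and control, and SLPI -0.30 to -0.14 between glabridin and control. Between melanosome and control, GPR15LG and LCN2 passed without glabridin replicate 2 (edgeR adjusted p = 5.16e-04 and 0.00771), and GPR15LG without glabridin replicate 3 (edgeR adjusted p = 0.0145). Counts of called genes stayed within 1.5 times under all 19 alternatives, at 4838 to 7332 between glabridin and melanosome over single left-out libraries. In the skin antimicrobial list, 8 or 9 genes fell between glabridin and melanosome and 9 between melanosome and control under all 19 alternatives. Of 722 values of the other named genes, 642 kept direction and call. Changes of sign befell 6 genes near 0 between glabridin and melanosome. LGALS3 came to -0.004, -0.0039, -0.0686, -0.1406, -0.1561 and -0.1564 with RLE factors, DESeq2, upper-quartile factors, library totals, log2(TPM + 1) and log2(TPM + 0.1). With library totals, log2(TPM + 1) and log2(TPM + 0.1), NFKBIA came to -0.0195, -0.035 and -0.0351, TNFRSF1A to -0.0564, -0.0647 and -0.065, CDH1 to -0.0627, -0.0712 and -0.0716, and KLK5 to -0.0092, -0.0211 and -0.0211. Over single left-out libraries LGALS3 ran from -0.0975 to 0.1407 and RXRA from -0.1595 to 0.0397. CST3 and CDH1 passed without glabridin replicate 2, and NFKBIA, TNFRSF1A and KLK5 without glabridin replicate 3. Of 798 list counts, 50 moved by over 1.5 times, most of them on the TPM scale, with library totals alone or without a glabridin library.

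No pairing of libraries by replicate number was detected, though 3 libraries per group are too few to exclude one. Deviations of same-numbered libraries correlated at -0.23 to 0.05, and in 6 of 18 cases a library correlated best with its own number. With a replicate block, 5523, 8255 and 9507 genes were called, against 6111, 8691 and 9774 without it, for glabridin vs melanosome, melanosome vs control and glabridin vs control. SLPI between glabridin and control was at -0.24 with the block. The block changed no call of the 6 genes. Depth limits DMBT1 and OLFM4 most, with 6 to 24 counts in each glabridin library.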

Other observations

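The tested genes nearest to OLFM4, DMBT1 and GPR15LG on their chromosomes showed smaller changes with glabridin than those 3 did. That outcome was nearly fixed in advance, since those 3 were picked for their strong fall, and nothing is read from it. SUGT1, a co-chaperone gene beside OLFM4, averaged 34.5 CPM in glabridin, 27.7 CPM in melanosome and 38.9 CPM in control libraries, with a log2 change of 0.32 between glabridin and melanosome libraries (edgeR adjusted p = 0.0653). Beside GPR15LG, the mitochondrial gene GHITM changed by 0.29 (edgeR adjusted p = 0.00192) and CDHR1, a photoreceptor cadherin gene, by 0.63 (edgeR adjusted p = 0.209). HTRA1, a secreted protease gene beside DMBT1, averaged 5.94 CPM in glabridin, 8.19 CPM in melanosome and 0.0379 CPM in control libraries, so it was higher with melanosomes where DMBT1 was lower. STK4, a kinase gene on the far side of PI3, changed by -0.31 with glabridin (edgeR adjusted p = 0.00666). The neighbours were taken by position, the alternatives were not run on them, and the difference from the 6 genes was not tested.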
